A study of Homo sapiens with 6 samples.

Results

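The genes described here carry the unfolded protein response and the amino acid stress response, and they were taken by name from a list of 36 genes. A gene entered the results where a probe set on the arrays was annotated to it alone, which held for 32 of the 36 members, among 9586 named genes in all. *HSP90B1* (2 probe sets) and *SYVN1* (1 probe set) share their annotation with a microRNA, and their values are not given, and *ATF4* and *PSPH* are not analysed here. The members fall into an arm of endoplasmic reticulum (ER) chaperones and ER-associated degradation (ERAD) with 13 measured genes, an arm of *ATF4* and amino acid metabolism with 13, and 6 sensors and transducers. RNA was measured on 3 Affymetrix arrays from HEK293T cells transfected with a plasmid that carries the coding region of *USF1* in the vector pcDNA4/HisMax (USF1) and on 3 arrays from cells that received an empty vector (Empty vector), with RNA taken at 48 hours in both. HEK293T cells derive from human embryonic kidney, and USF1 is a transcription factor that binds E-box sequences. Over-expression was transient, so an array averages over cells that took up plasmid and cells that did not, and in such bulk RNA fewer responding cells and less RNA per cell cannot be told apart. No source used here says if each array had its own transfection, so the p-values cover the spread among these arrays alone, and that spread may be technical.

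When unfolded proteins accumulate in the ER, 3 membrane sensors respond. ATF6 is cut and moves to the nucleus, IRE1 (*ERN1*) splices the mRNA of *XBP1*, and PERK (*EIF2AK3*) phosphorylates the initiation factor eIF2. The first pair of routes raises chaperones and ERAD factors. PERK, and GCN2 (*EIF2AK4*) when amino acids run short, slow translation in general and favour translation of *ATF4*, whose targets make and import amino acids and include the stress factors *DDIT3* (CHOP) and *ATF3*. The cutting of ATF6, the splicing of *XBP1*, the phosphorylation of eIF2 and the translation of *ATF4* do not show in the total mRNA level that a probe set measures.

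Expression is given as log2 RMA values, for which the authors subtracted background, quantile normalized the arrays and corrected for batches, and dropped probe sets called absent on most arrays. The USF1 minus Empty vector difference (log2) was fitted with limma over all 16569 probe sets, and a change was called at a Benjamini-Hochberg adjusted p-value under 0.05. A gene with several probe sets is given at the probe set with the highest mean. Array medians lay between 5.88 and 6.0. The 1 probe set of *USF1* had values of 4.76, 4.94 and 4.68 in USF1 arrays and 4.37, 5.08 and 5.14 in Empty vector arrays (log2 difference -0.07, SE 0.19, adjusted p-value = 0.836 from limma). Where its probes lie is unknown here, and the plasmid holds the coding region alone, so this probe set does not check for the plasmid's transcript. The authors report that they checked over-expression of the USF1 protein by western blot, which is not part of these data. Of 10 genes fixed as markers of HEK293T, 6 were measured, with vimentin (*VIM*) at 9.91 to 10.26 and the neurofilament *NEFM* at 10.07 to 10.58 on all arrays. *EPCAM* rose (0.93) at values below the array medians (3.87 to 5.12), and *INA* fell (-0.39). *LIN28B* (-0.10) and the neurofilament *NEFL* (0.15) did not pass at their brightest probe sets, and the other *NEFL* probe sets rose (0.38 and 0.41). The 17 markers of blood, liver, endothelium, fibroblasts and adipocytes are not analysed here. Empty vector replicate 1 stood apart from the other arrays of its group, with an SD of the difference over all probe sets of 0.336 to each, against 0.182 between those and 0.149 to 0.222 within USF1. The 5′ minus 3′ value of the actin control, which is lower in degraded RNA, was -0.53, -0.68 and -0.49 in USF1 arrays and -1.34, -1.04 and -0.52 in Empty vector arrays. For the GAPDH control it was -0.35, -0.32 and -0.33 in USF1 arrays and -0.58, -0.32 and -0.26 in Empty vector arrays. The part of RNA degradation in the differences below was not tested.

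BiP and 2 of its partner genes rose after *USF1* over-expression, and few of the other stress response genes passed the test. *SDF2L1*, *DNAJB9* and *HSPA5* were higher in USF1 cells, by 1.43, 1.36 and 1.28-fold, and *ASNS* and *CEBPB* were lower, at 0.75 and 0.74 of the Empty vector level. Of the 13 genes of the ER arm, 3 rose and 0 fell (23.1%), where 5.18% of all named genes rose and 8.89% fell. Of the 13 genes of the *ATF4* arm, 0 rose and 2 fell (15.4%), and of the 6 sensors and transducers 0 passed in either direction (0 at an unadjusted p-value under 0.05 and 0 with the methods' t-test). The share of falls in the *ATF4* arm lies near that of all genes, with 2 genes behind it. Over all 32 members, 9.38% rose and 6.25% fell.

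**Figure D1:**
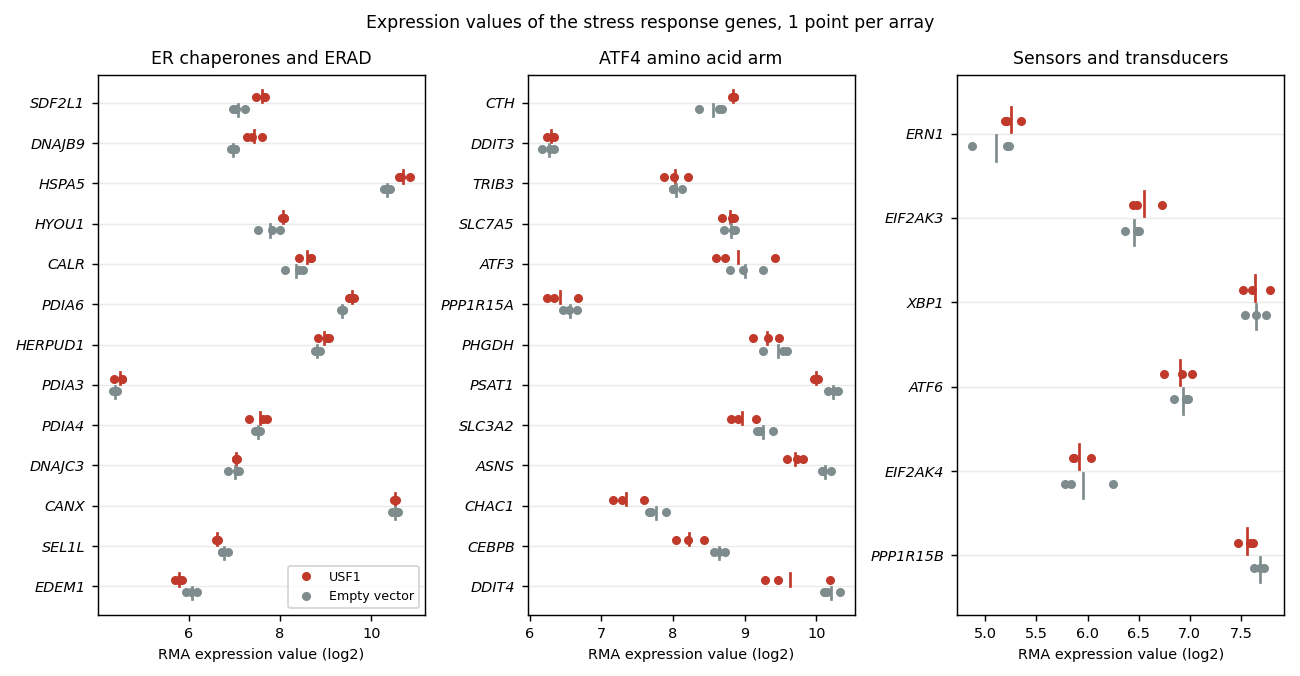
RMA expression values (log2, horizontal axis) of the 32 measured genes (vertical axis), 1 point per array, with USF1 in red above Empty vector in grey and the group mean as a vertical bar. In *SDF2L1*, *DNAJB9* and *HSPA5* all 3 USF1 arrays lie right of all 3 Empty vector arrays, and in *ASNS* and *CEBPB* all lie left of them.

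*HSPA5* encodes BiP, the major Hsp70 chaperone of the ER, whose release from the sensors is part of their activation. Its values were 10.61, 10.64 and 10.85 in USF1 arrays, against 10.28, 10.40 and 10.34 in Empty vector arrays. Every USF1 array lay above every Empty vector array, and the log2 difference was 0.36 (SE 0.10, adjusted p-value = 0.0452 from limma). A second, dimmer probe set rose as well, by 0.39 (SE 0.11, adjusted p-value = 0.0471 from limma). *DNAJB9* (ERdj4), a cochaperone that hands substrates to BiP and restrains IRE1, had values of 7.28, 7.60 and 7.39 in USF1 arrays, against 7.02, 7.02 and 6.92 in Empty vector arrays. Again the groups did not overlap, and *DNAJB9* rose by 0.44 (SE 0.10, adjusted p-value = 0.031 from limma), with its other probe set at 0.50 and just outside the threshold (adjusted p-value = 0.0503 from limma). *SDF2L1*, an ER protein that works with the BiP cochaperone ERdj3, had values of 7.64, 7.48 and 7.67 in USF1 arrays, against 7.23, 6.97 and 7.03 in Empty vector arrays. Its groups were well apart, and at the brightest probe sets it had the largest rise of the members, 0.52 (SE 0.10, adjusted p-value = 0.019 from limma). *HYOU1* (GRP170), which exchanges the nucleotide of BiP, had values of 8.08, 8.04 and 8.09 in USF1 arrays, against 7.99, 7.82 and 7.51 in Empty vector arrays, and did not pass at 0.30 (SE 0.12, adjusted p-value = 0.144 from limma). *DNAJC3* (p58IPK), another BiP cochaperone, had a difference of 0.03 (SE 0.09). Its dimmer probe sets lay at 0.36 each (SE 0.23 and 0.31) and did not pass, with Empty vector replicate 1 the lowest array in each (4.40 and 3.59). These calls rested on few arrays. *SDF2L1* was not called without USF1 replicate 1 or 3 or Empty vector replicate 2 or 3 (adjusted p-values 0.0532 to 0.0897), *DNAJB9* without any array but Empty vector replicate 1 (0.0518 to 0.108) and *HSPA5* without any of the 6 (0.0554 to 0.169), while *HYOU1* was called without Empty vector replicate 1 (0.40, adjusted p-value = 0.0414 from limma) and with array weights (0.36, adjusted p-value = 0.0404).

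The promoters of these 3 genes are shown because these genes rose and their windows differ in matches to the letters searched. Each line gives the 250 bases before the start site of the RefSeq transcript (GRCh38.p14), 5′ to 3′ on the strand of the gene, with matches in capitals. The letters searched on both strands were the E-box CACGTG that USF1 binds, the ER stress element (CCAAT and CCACG with 9 bases between them) of ATF6 and XBP1, TGACGTG, the core of a further element of ATF6 and XBP1, and TGATGNAA, the element of ATF4 with C/EBP factors.
DNAJB9, chr7:108569624-108569873, plus strand: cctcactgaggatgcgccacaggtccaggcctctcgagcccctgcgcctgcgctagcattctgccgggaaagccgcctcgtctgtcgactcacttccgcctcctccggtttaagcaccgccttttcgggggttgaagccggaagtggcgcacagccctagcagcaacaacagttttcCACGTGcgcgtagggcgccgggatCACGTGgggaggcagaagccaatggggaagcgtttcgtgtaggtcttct
HSPA5, chr9:125241344-125241593, minus strand: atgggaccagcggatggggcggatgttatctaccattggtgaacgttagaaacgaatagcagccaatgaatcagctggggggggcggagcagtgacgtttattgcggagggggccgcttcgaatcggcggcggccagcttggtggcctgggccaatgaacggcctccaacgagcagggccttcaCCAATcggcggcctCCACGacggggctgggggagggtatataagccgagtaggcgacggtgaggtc
SDF2L1, chr22:21642052-21642301, plus strand: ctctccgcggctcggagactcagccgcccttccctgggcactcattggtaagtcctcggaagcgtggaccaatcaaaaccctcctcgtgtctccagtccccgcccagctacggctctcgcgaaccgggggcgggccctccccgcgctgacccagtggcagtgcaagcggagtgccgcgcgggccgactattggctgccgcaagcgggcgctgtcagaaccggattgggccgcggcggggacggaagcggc
The window of *DNAJB9* holds 2 E-boxes, 73 to 68 and 49 to 44 bases before the start. That of *HSPA5* holds 1 ER stress element, 66 to 48 bases before the start, and that of *SDF2L1* holds none of the 4 as spelt here. The *SDF2L1* window does hold cgtggaccaat, where CCAAT and the reverse complement of CCACG stand closer together. That spacing was not searched, so the lack of a match does not show that an ER stress element is absent.

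The lectin chaperones and the disulfide isomerases were mostly on the positive side of 0 without passing. Calreticulin (*CALR*), which binds monoglucosylated glycoproteins in the ER lumen, had values of 8.67, 8.41 and 8.68 in USF1 arrays, against 8.51, 8.10 and 8.42 in Empty vector arrays, at its brightest probe set, where the groups overlapped (0.24, SE 0.13, adjusted p-value = 0.236 from limma). Its other probe sets lay higher. One had values of 6.29, 6.10 and 6.43 in USF1 arrays, against 5.60, 5.39 and 5.78 in Empty vector arrays, and rose by 0.68 (SE 0.13, adjusted p-value = 0.0157 from limma). The third, at 0.47, missed the threshold (adjusted p-value = 0.0595 from limma). With the mean over its probe sets *CALR* was called (0.46, adjusted p-value = 0.0141 from limma). The brightest and the third belong to a class of probe sets (x_at) whose probes can match further transcripts. Calnexin (*CANX*), the membrane-bound relative of calreticulin, had 4 probe sets with differences of -0.01 to 0.25, none of which passed. *PDIA6* (P5), a disulfide isomerase that acts with BiP, had USF1 arrays above all Empty vector arrays at each of its 4 probe sets. The differences were 0.15 to 0.21, with adjusted p-values of 0.121 to 0.277 from limma. At the dimmest of these probe sets the groups met at 8.95 as rounded, and some of the others are of the x_at class. USF1 arrays lay above all Empty vector arrays in 12.6% of all named genes. The isomerases *PDIA3* (ERp57, 0.10, SE 0.09) and *PDIA4* (ERp72, 0.05, SE 0.11) had overlapping groups. *PDIA3* was measured at a dim probe set alone, at 4.34 to 4.55 over the arrays and below the array medians. The filter on the lowest 25% of probe sets removed it.

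No measured ERAD member passed the test. *HERPUD1*, a membrane protein that gathers ERAD complexes, lay at 0.16 (SE 0.10, adjusted p-value = 0.285 from limma). *EDEM1*, which trims mannose from misfolded glycoproteins, had values of 5.86, 5.79 and 5.71 in USF1 arrays, against 6.19, 6.06 and 5.95 in Empty vector arrays. Its USF1 arrays lay below all Empty vector arrays, at -0.28 (SE 0.09, adjusted p-value = 0.0854 from limma). *SEL1L*, the adaptor of the ubiquitin ligase SYVN1, had values of 6.61, 6.59 and 6.64 in USF1 arrays, against 6.85, 6.73 and 6.73 in Empty vector arrays, and did not pass either (-0.16, SE 0.08, adjusted p-value = 0.227 from limma). In the ER arm as a whole, 10 of 13 genes had a positive difference, against 36.6% of all named genes, and its median was 0.16, against -0.08 over all named genes. USF1 arrays lay above all Empty vector arrays in 5 of the 13 (38.5%, against 12.6% of all named genes) and below them in 2 (15.4%, against 27.5%).

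**Figure D2:**
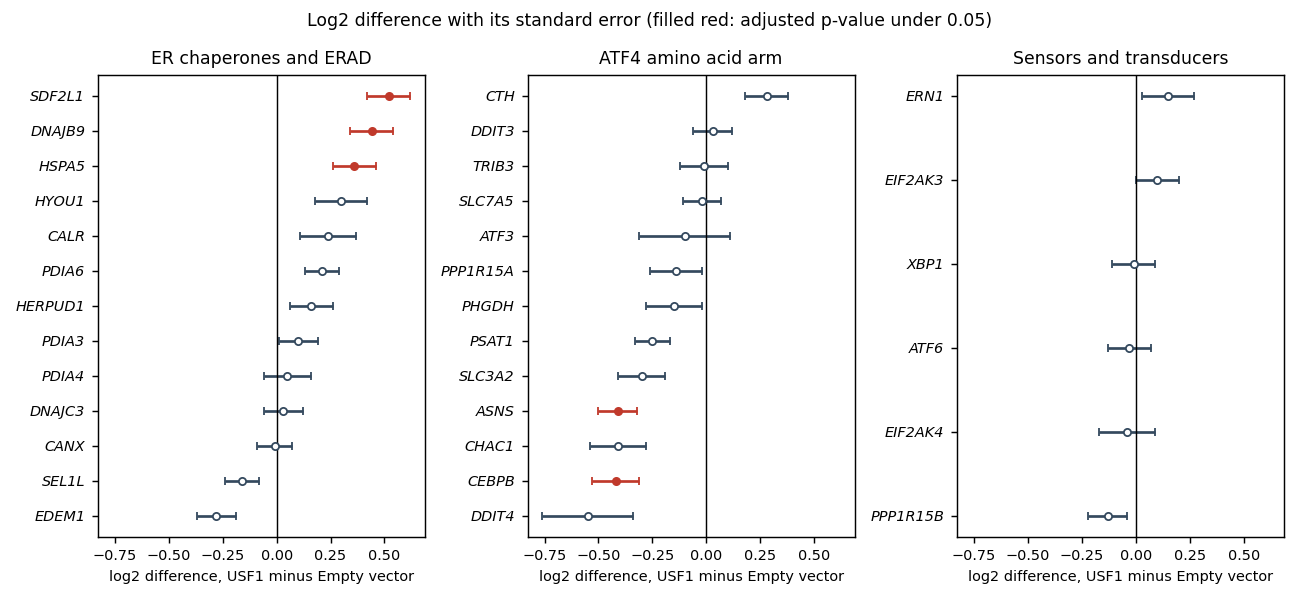
USF1 minus Empty vector (log2, horizontal axis) for the genes of the 3 groups (vertical axis), with bars for the standard error and filled red points for an adjusted p-value under 0.05 by limma. *SDF2L1* (0.52), *DNAJB9* (0.44) and *HSPA5* (0.36) are the red points on the right, and *ASNS* (-0.41) and *CEBPB* (-0.42) those on the left.

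Genes of amino acid supply were lower or did not pass in USF1 cells, with 1 enzyme of cysteine synthesis on the other side of 0. *ASNS*, asparagine synthetase and a well-known target of ATF4, had values of 9.82, 9.59 and 9.73 in USF1 arrays, against 10.20, 10.09 and 10.08 in Empty vector arrays. The groups did not overlap, and *ASNS* fell by 0.41 on the log2 scale (SE 0.09, adjusted p-value = 0.0285 from limma). *PSAT1*, the aminotransferase of serine synthesis, had values of 9.97, 10.03 and 9.98 in USF1 arrays, against 10.25, 10.31 and 10.17 in Empty vector arrays, at its brightest probe set (-0.25, SE 0.08, adjusted p-value = 0.0833 from limma). At its other probe set *PSAT1* fell, by 0.41 (SE 0.08, adjusted p-value = 0.0185 from limma). *PHGDH*, which opens serine synthesis, had overlapping groups (-0.15, SE 0.13). *SLC3A2*, the heavy chain of several amino acid transporters, had values of 8.81, 9.16 and 8.91 in USF1 arrays, against 9.17, 9.22 and 9.39 in Empty vector arrays (-0.30, SE 0.11, adjusted p-value = 0.112 from limma). The USF1 arrays of *SLC3A2* lay below all Empty vector arrays by a narrow margin, whereas its partner *SLC7A5*, the light chain of the LAT1 transporter, overlapped at -0.02 (SE 0.09). *CTH*, the enzyme that releases cysteine from cystathionine, had values of 8.82, 8.85 and 8.85 in USF1 arrays, against 8.37, 8.69 and 8.64 in Empty vector arrays. It was the 1 member of this arm with USF1 arrays above all Empty vector arrays, at 0.28 (SE 0.10, adjusted p-value = 0.108 from limma). That is 7.69% of the arm, against 12.6% of all named genes.

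Of the stress factors of the *ATF4* arm, *CEBPB* alone passed the test. *CEBPB*, a leucine zipper factor that pairs with ATF4, had values of 8.21, 8.43 and 8.05 in USF1 arrays, against 8.65, 8.73 and 8.58 in Empty vector arrays, and it fell by 0.42 on the log2 scale (SE 0.11, adjusted p-value = 0.0439 from limma). *CHAC1*, which degrades glutathione, had values of 7.29, 7.60 and 7.16 in USF1 arrays, against 7.70, 7.90 and 7.67 in Empty vector arrays. Its groups did not overlap, but it missed the threshold at -0.41 (SE 0.13, adjusted p-value = 0.0701 from limma). *DDIT4* (REDD1), an inhibitor of mTORC1, had values of 9.47, 10.19 and 9.28 in USF1 arrays, against 10.11, 10.33 and 10.15 in Empty vector arrays. USF1 replicate 2 was within the range of the Empty vector arrays and the others far below it, so that -0.55 (SE 0.21, adjusted p-value = 0.116 from limma), the lowest value of all members, did not pass. Without that array, and with Empty vector replicate 2 kept, *DDIT4*, *CHAC1* and *SLC3A2* were called (-0.83, -0.53 and -0.40, adjusted p-values 0.0104, 0.0267 and 0.0491 from limma). *CHAC1* was also called with array weights (-0.49, adjusted p-value = 0.0162) and with a trended, robust prior in limma (adjusted p-value = 0.034). *DDIT3* (CHOP, 0.03, SE 0.09), the pseudokinase *TRIB3* (-0.01, SE 0.11), *ATF3* (-0.10, SE 0.21) and *PPP1R15A* (GADD34, -0.14, SE 0.12), which directs a phosphatase to eIF2, had overlapping groups. Their 95% intervals reached from -0.17 to 0.22 for *DDIT3*, from -0.25 to 0.23 for *TRIB3*, from -0.59 to 0.38 for *ATF3* and from -0.42 to 0.15 for *PPP1R15A*. *ASNS* was not called without any array but Empty vector replicate 1 (adjusted p-values 0.0532 to 0.106), and *CEBPB* without any array but USF1 replicate 2 (0.0512 to 0.165).

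The same windows are shown for the 2 members that fell, as both are described as partners or targets of ATF4. Both genes have 2 RefSeq start sites, and the one farther upstream was used.
ASNS, chr7:97872409-97872658, minus strand: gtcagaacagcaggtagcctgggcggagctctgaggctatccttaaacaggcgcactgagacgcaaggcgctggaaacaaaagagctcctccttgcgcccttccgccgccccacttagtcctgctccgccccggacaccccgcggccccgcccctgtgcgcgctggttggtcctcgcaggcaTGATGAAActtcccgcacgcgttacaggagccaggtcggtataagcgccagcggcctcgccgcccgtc
CEBPB, chr20:50190333-50190582, plus strand: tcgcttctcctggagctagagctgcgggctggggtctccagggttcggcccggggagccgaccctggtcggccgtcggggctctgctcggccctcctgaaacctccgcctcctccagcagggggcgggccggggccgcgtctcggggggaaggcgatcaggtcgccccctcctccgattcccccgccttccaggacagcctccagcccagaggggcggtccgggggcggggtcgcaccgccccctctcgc
The window of *ASNS* holds 1 match to TGATGNAA, 68 to 61 bases before the start, and that of *CEBPB* holds none of the 4.

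Over the *ATF4* arm, 11 of 13 genes had a negative difference (84.6%, against 63.4% of all named genes), and the median was -0.15, against -0.08 over all named genes. That median was -0.27 without USF1 replicate 2, the lowest of the fits that left out an array, and -0.26 with array weights. USF1 arrays lay below all Empty vector arrays in 5 of the 13 (38.5%), which is the case for 27.5% of all named genes. Shifting every array to the mean of the array medians moved the median of all named genes to -0.01. With that shift 9 of 13 genes were negative, with *TRIB3* (0.057) and *SLC7A5* (0.052) turned positive. *CEBPB* was no longer called (-0.36, adjusted p-value = 0.0641 from limma). In the ER arm 11 of 13 were then positive, *CANX* (0.058) among them.

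The arms were then set against each other within each array. The mean of the 13 ER genes was 7.93, 7.86 and 7.95 in USF1 arrays, against 7.83, 7.75 and 7.71 in Empty vector arrays. The mean of the 13 *ATF4* genes was 8.47, 8.64 and 8.39 in USF1 arrays, against 8.65, 8.74 and 8.68 in Empty vector arrays. The ER mean minus the *ATF4* mean was thus -0.53, -0.78 and -0.43 in USF1 arrays, against -0.82, -0.98 and -0.97 in Empty vector arrays, or -0.58 ± 0.18 in USF1 and -0.92 ± 0.09 in Empty vector (SD, n = 3 each). This difference within an array does not move with the centring of the array. USF1 replicate 2 (-0.78) and Empty vector replicate 1 (-0.82) lay next to each other, and the other arrays were far apart. The median of the ER arm exceeded that of the *ATF4* arm by 0.31, and by 0.47 without USF1 replicate 2. The latter was the largest gap of the fits that left out an array, and that fit kept Empty vector replicate 2. As the genes were listed with results of these arrays known, the gap between the arms is a description and carries no test.

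**Figure D3:**
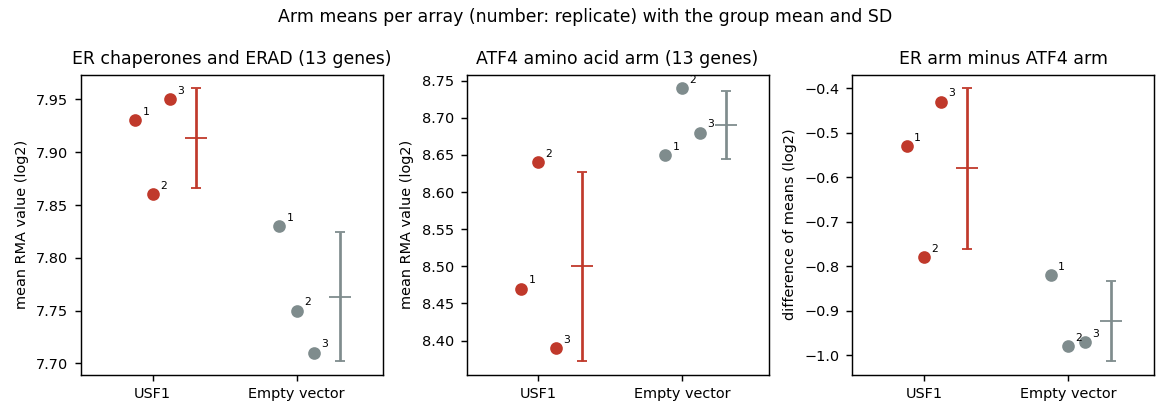
Mean RMA value (log2, vertical axis) of the ER arm (left) and the *ATF4* arm (middle) and their difference (right) in each array, numbered by replicate, USF1 in red and Empty vector in grey, with the group mean and SD at the side (n = 3 arrays each). In the right panel the lowest USF1 array (-0.78) lies just above the highest Empty vector array (-0.82).

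In the *ATF4* arm many genes were high in the same replicate number of both groups. Replicate 2 had the highest value of its group in both USF1 and Empty vector in 9 of 13 genes of this arm, *ATF3*, *CEBPB*, *CHAC1*, *CTH*, *DDIT4*, *PPP1R15A*, *PSAT1*, *SLC7A5* and *TRIB3*. This was so in 16.3% of all named genes, in 1 of 13 genes of the ER arm and in 3 of the 6 sensors and transducers. In *ATF3* the values were 8.72, 9.42 and 8.60 in USF1 arrays, against 8.80, 9.26 and 8.98 in Empty vector arrays, so that replicate 2 stood out in both groups and the groups overlapped. In 3 genes of the ER arm, *CALR*, *PDIA4* and *SDF2L1*, replicate 2 was instead the lowest in both groups, as in 17.1% of all named genes. A fit without USF1 replicate 2 keeps Empty vector replicate 2, which lowers the difference in the 9 genes high in replicate 2 of both groups. The labels do not say what a replicate number shares between the groups. The pattern was seen in the values first, and the genes of the arm are not independent of each other.

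**Figure D4:**
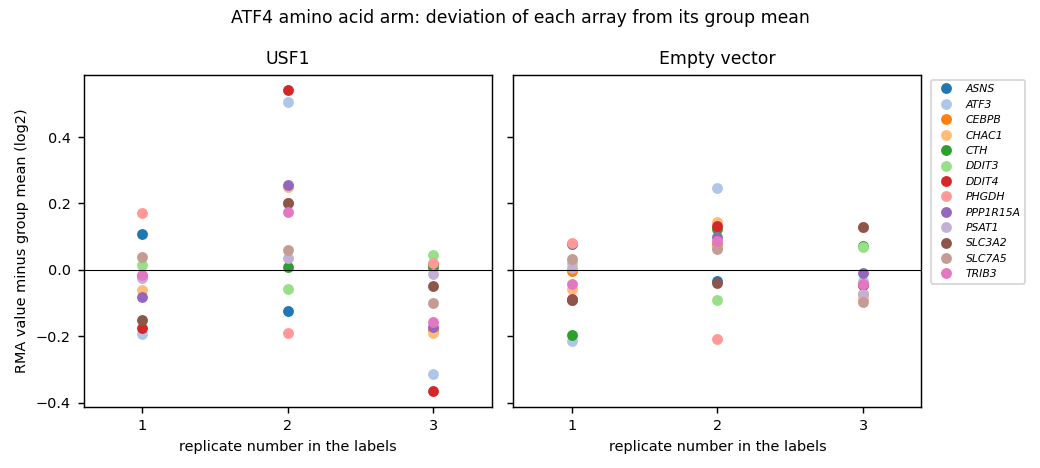
RMA value minus the group mean (log2, vertical axis) for the 13 genes of the *ATF4* arm (1 colour per gene) in each replicate (horizontal axis), USF1 on the left and Empty vector on the right. In both panels most points of replicate 2 lie above 0, with *ATF3* at the top of Empty vector and *DDIT4* and *ATF3* at the top of USF1.

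The sensors and transducers showed no change that passed. *ATF6* (-0.03, SE 0.10), *XBP1* (-0.01, SE 0.10), the sensor genes *ERN1* (0.15, SE 0.12) and *EIF2AK3* (0.10, SE 0.10) and the amino acid sensor *EIF2AK4* (-0.04, SE 0.13) had overlapping groups. For *XBP1* the values were 7.52, 7.78 and 7.61 in USF1 arrays, against 7.65, 7.75 and 7.54 in Empty vector arrays. *PPP1R15B*, the constitutive partner of the eIF2 phosphatase, had values of 7.62, 7.59 and 7.47 in USF1 arrays, against 7.73, 7.69 and 7.63 in Empty vector arrays, at -0.13 (SE 0.09, adjusted p-value = 0.349 from limma). In *PPP1R15B* alone the USF1 arrays lay below all Empty vector arrays (16.7% of the 6 genes, against 27.5% of all named genes). The 95% intervals of the 6 genes lay within -0.34 and 0.41, and a p-value above the threshold does not show that the levels were equal.

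The members have 53 probe sets, of which 5 rose and 3 fell, where 4.32% of all probe sets rose and 7.60% fell. Of 13 members with several probe sets, 10 had the same sign at each. The exceptions were *CANX*, *SEL1L* and *ATF6*. Counting a gene as changed where any of its probe sets passed, *CALR* joined the rises and *PSAT1* the falls, for 4 genes higher and 3 lower. Over all named genes the probe set with the smallest p-value was likewise called more often than the brightest, in 562 genes higher and 1001 lower, against 497 and 852. By the methods' t-test, run here with unequal variances and without adjustment, at a p-value of at most 0.05, *DNAJB9*, *HSPA5*, *PDIA6* and *SDF2L1* were higher and *ASNS*, *CEBPB*, *EDEM1*, *PSAT1* and *SEL1L* lower, 12.5% and 15.6% of the members against 8.30% and 15.8% of all named genes. After Benjamini-Hochberg adjustment of that test 0 members passed, as did 1 of all named genes.

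Wider lists of the same pathways were counted in the same way. Of 64 measured further genes of ER folding and quality control, 1 rose and 1 fell (1.56% each), with a median of -0.01. *SEC61A1*, the channel of the translocon, rose by 0.32 (SE 0.09, adjusted p-value = 0.0476 from limma), with values of 7.81, 7.66 and 7.77 in USF1 arrays, against 7.36, 7.42 and 7.50 in Empty vector arrays, and its other probe set rose too. *MBTPS2*, the site-2 protease that releases ATF6 and SREBP from the membrane, fell by 0.34 (SE 0.08, adjusted p-value = 0.0357 from limma). The share of rises in this list was below the 5.18% of all named genes.

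Of 46 measured further genes of the amino acid response, 2 rose (4.35%, against 5.18% of all named genes) and 8 fell (17.4%, against 8.89%), with a median of -0.14, against -0.08 over all named genes. The falls were those of *JDP2* (-0.43, SE 0.09), a repressor of AP-1, the tyrosyl-tRNA synthetase *YARS1* (-0.45, SE 0.10), *SLC1A4* (-0.61, SE 0.14), a carrier of serine and other small neutral amino acids, and the stress cytokine *GDF15* (-0.43, SE 0.10). *STC2* (-0.57), *SLC7A11* (-0.44), *TARS1* (-0.34) and *CARS1* (-0.33) complete the count and were named after their values were seen. *SLC1A4* had values of 4.76, 4.98 and 4.66 in USF1 arrays, against 5.66, 5.39 and 5.16 in Empty vector arrays, with no overlap. *SLC1A4*, *JDP2* (4.19 to 4.76 over the arrays) and *GDF15* (4.01 to 4.58) all lay below the array medians. The filter on the lowest 25% of probe sets removed *JDP2* and *GDF15*. The rises were those of *NUPR1* (0.51, SE 0.10, adjusted p-value = 0.0184 from limma), a stress-induced nuclear protein, and of *MAP1LC3B* (0.35, SE 0.08, adjusted p-value = 0.0334 from limma), which coats autophagosomes. Of 16 further genes around eIF2, 0 rose and 2 fell (12.5%, near the 8.89% of all named genes). *EIF2B3*, the gamma subunit of the exchange factor eIF2B, had values of 6.55, 6.57 and 6.57 in USF1 arrays, against 7.08, 7.11 and 7.08 in Empty vector arrays. It fell by 0.52 on the log2 scale (SE 0.08, adjusted p-value = 0.00743 from limma), and it was called without each array in turn. *IMPACT*, which restrains GCN2, fell by 0.37 (SE 0.09, adjusted p-value = 0.0373 from limma). Apart from *STC2*, *SLC7A11*, *TARS1* and *CARS1*, for which this was not computed, and *EIF2B3*, the genes named from these lists each lost their call without at least 1 array, *MBTPS2* and *IMPACT* without any of the 6 (adjusted p-values up to 0.138 and 0.144). With every array shifted to the mean of the array medians, *MBTPS2* (-0.27), *GDF15* (-0.36) and *IMPACT* (-0.30) were not called (adjusted p-values 0.0551, 0.0564 and 0.0693 from limma). Nor was *IMPACT* called after a further quantile normalization (adjusted p-value = 0.0591 from limma).

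**Figure D5:**
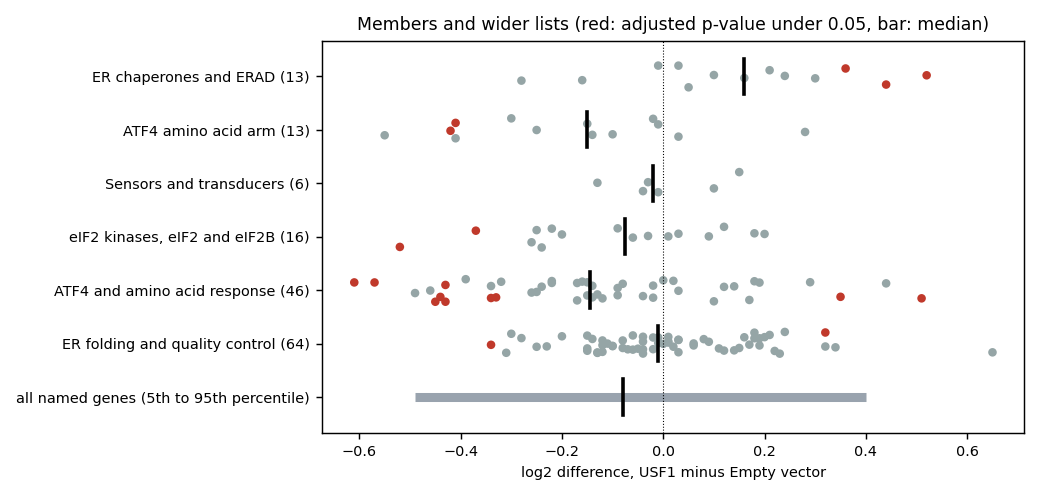
Log2 difference between USF1 and Empty vector (horizontal axis) of each measured gene in the 3 groups of members and the 3 wider lists, with the number of genes in brackets, red for an adjusted p-value under 0.05 by limma, and the median as a black bar. The bottom line spans the 5th to the 95th percentile of all named genes. The median of the ER arm (0.16) lies right of those of the other lists, and that of the wider ER list (-0.01) near 0.

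The 4 motifs were also counted over all members. RefSeq promoters were held for 34 of the 36 members, and no match to one of the 4 motifs overlapped a match to another. The ER stress element stood in 6 of 34 members, against 0.0916% of 27305 genes, in *CALR*, *CANX*, *HSP90B1*, *HSPA5*, *PDIA6* and *XBP1*. The values of *HSP90B1* are not given here. Among the others *HSPA5* alone was called at its brightest probe set, where 5.18% of all named genes rose. The E-box CACGTG stood in 5 of 34, against 7.73% of all genes, in *DNAJB9*, *HERPUD1* and *HSP90B1* of the ER arm and in *ATF4* and *SLC7A5* of the *ATF4* arm. Of the 3 measured among these, *DNAJB9* rose (0.44), and *HERPUD1* (0.16) and *SLC7A5* (-0.02) did not pass. TGATGNAA stood in *ASNS*, *ATF3*, *CHAC1*, *HERPUD1* and *PPP1R15B* (3.89% of all genes), whose differences ran from -0.41 to 0.16, and TGACGTG in *HYOU1* (2.05% of all genes). A match describes letters in the window and is not a binding site, and other spellings or spacings of these elements were not searched.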

How the data were processed

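Total RNA from HEK293T cells was hybridized by the authors to Affymetrix arrays, 3 for USF1 and 3 for Empty vector, and arrays were assigned from their titles. The authors deposited RMA values as log2. By their methods, they used justRMA in R 2.8.0, an alternate probe definition without mis-targeted and nonspecific probes, filters on probe number and absent calls, and ComBat, with batches not given in the sources used here. Probe sets removed by these filters are not analysed here. The fit holds no term for batch, so p-values rest on the spread that ComBat left.

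From these values, lmFit and eBayes of limma 3.58.1 in R 4.3.3 were run over all 16569 probe sets (33 control probe sets included; prior of 4.53 degrees of freedom), with Benjamini-Hochberg adjustment and a threshold of 0.05. The procedure was tested on simulated data. Names came from the platform annotation, which gives 15099 probe sets 1 gene, 570 several and 900 none. The rule names every measured member, *USF1* and up to 6 called genes of each wider list with the smallest adjusted p-values. The members and all lists were chosen with earlier results of these data known. Alternatives were the methods' t-test, another prior, array weights, 2 further normalizations, a filter on the lowest 25% of probe sets, 2 other choices of probe set, a fit with a replicate block, and each array left out in turn. The methods name Student's t-test, which was run with unequal variances. Promoters are RefSeq windows of GRCh38.p14. The number of arrays limits the precision.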

Additional observations from a re-analysis of the deposited data

How the results depend on the processing

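Without single arrays, 0 to 3 members were called higher (3 with all) and 0 to 4 lower (2 with all), and of the wider lists 0 to 4 higher (3) and 1 to 10 lower (11). No member was called higher or lower without USF1 replicate 1, USF1 replicate 3, Empty vector replicate 2 or Empty vector replicate 3, where calls over all named genes fell as well (153 higher and 169 lower without USF1 replicate 1, 497 and 852 with all). The median of the ER arm then ran from 0.114 to 0.204, that of the *ATF4* arm from -0.267 to -0.141 and the gap between them from 0.294 to 0.471.

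After Benjamini-Hochberg adjustment the methods' t-test called 0 members higher, 0 lower, and 0 higher and 1 lower of the wider lists. With array weights 4 members rose (*HYOU1* joined) and 6 fell (*CHAC1*, *DDIT4*, *PSAT1* and *SLC3A2* joined), 7 genes of the wider lists rose and 18 fell, and of all named genes 840 rose and 1526 fell, while the *ATF4* median was -0.261 and the gap 0.459. With eBayes with trend and robust, and with the mean over the probe sets of a gene, 4 members fell (*CHAC1* and *PSAT1* joined). With that mean 4 members rose (*CALR* joined), and 5 genes of the wider lists rose. Calls over all named genes grew as well, to 563 higher and 1182 lower with trend and robust, and to 667 and 1315 with that mean. After a further quantile normalization 5 genes of the wider lists rose, and of all named genes 653 rose and 657 fell. After centring of the arrays on their medians 1 member fell, 6 genes of the wider lists rose and 5 fell, and the ER median was 0.231. Of all named genes 704 rose and 565 fell after centring. With the probe set of the smallest p-value the ER median was 0.25. Of all calls among named genes, 36.8% were rises, 49.9% after the further quantile normalization and 55.5% after centring.

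With a replicate block 3 members rose and 3 fell (*CHAC1* joined), and 5 genes of the wider lists rose and 12 fell. Over all named genes 609 rose and 1297 fell with that block, against 497 and 852 without it. Same-numbered arrays correlated at 0.096, 0.246 and 0.129 in their deviations from the group means, each higher than with any other number. The labels do not say what a number shares, and the main fit did not use the numbers as a pairing.

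Signs turned only in members that did not pass. After the further quantile normalization these were *TRIB3* (0.0397), *SLC7A5* (0.0163), *ATF6* (0.0382), *XBP1* (0.0422) and *EIF2AK4* (0.0272), and after centring *CANX* (0.0581), *TRIB3* (0.0566), *SLC7A5* (0.0516), *ATF6* (0.0353), *XBP1* (0.0584) and *EIF2AK4* (0.0306). With the mean over probe sets they were *CANX* (0.134) and *ATF6* (0.0222), and with the probe set of the smallest p-value *CANX* (0.25) and *ATF6* (0.086). Without single arrays, *DNAJC3* ran from -0.0395 to 0.0793, *PDIA4* from -0.0256 to 0.169, *CANX* from -0.0476 to 0.0163, *ATF3* from -0.359 to 0.0529, *DDIT3* from -0.0181 to 0.0605, *TRIB3* from -0.0985 to 0.0658, *SLC7A5* from -0.0673 to 0.0325, *ATF6* from -0.094 to 0.0392, *XBP1* from -0.0798 to 0.0459 and *EIF2AK4* from -0.126 to 0.107. The cause of these changes was not tested, beyond the fewer arrays of a fit without 1 of them.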
